A study of Homo sapiens with 4 samples.

Results

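Long noncoding RNAs (lncRNAs) that carry small RNAs inside their own gene were examined in the m6A maps of OE-19 cells. Members were taken from the GENCODE version 44 annotation of hg38 by their type and symbol: lncRNA genes named SNHG followed by digits, GAS5, or MIR...HG. The rule gave 112 of 62700 annotated genes, of which 29 were snoRNA hosts (SNHG genes and GAS5) and 83 were miRNA hosts (MIR...HG genes). The rule used no measured value. The 112 genes made up a small portion of the 18866 annotated lncRNA genes, and the other 18754 lncRNA genes served as the comparison.

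OE-19 is an established human cell line from adenocarcinoma of the esophagogastric junction (AEG), grown in serum-supplemented medium. The labels name no drug treatment or genetic change, and they describe the cells as UV-fixed and lysed. The series held 4 samples, replicates 1 and 2 of the m6A immunoprecipitation (IP) and replicates 1 and 2 of input RNA, all from this line. In m6A IP sequencing, RNA fragments bound by an anti-m6A antibody are sequenced and regions of pile-up are called as peaks. Peaks were listed separately for the IP replicates, 24607 in replicate 1 and 19318 in replicate 2, and input samples without a list were not analysed here. For each peak the lists give a position, a summit and the fold enrichment at the summit, the ratio of signal to the background that the caller estimated. They give neither read numbers nor strand. The depth of the libraries is therefore unknown, and a summit under genes of both strands cannot be told apart. Expression is not in the lists and was not analysed here. Nothing in the labels says whether the replicates came from separate cultures. A peak list can show a cell type only through genes that have a peak: an exonic summit was found in both lists for CDH1 alone among 6 epithelial markers and for CD68 alone among 4 immune markers, and COL1A1 alone among 4 fibroblast markers had a summit, in replicate 1.

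Host lncRNAs are transcribed as long precursors and then divided between products. The snoRNAs, which guide chemical modification of ribosomal RNA, are mostly trimmed out of the introns after splicing, while the miRNA hairpins are cut from the primary transcript by the Microprocessor complex. N6-methyladenosine is added to nascent RNA by a methyltransferase complex, most often at an adenosine within a GGAC-like sequence and often in long last exons. It has been described both on mature lncRNAs and on primary miRNA transcripts, where it can promote hairpin processing.

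There were 8 members with overlapping exonic peaks in the lists, the exonic places where signal assigned to a host lncRNA was found in both replicates. Shared intronic peaks are described further below. The sequence around the replicate 1 summit of the strongest such peak is shown for each, read from hg38 on the strand of the gene, 5′ to 3′, over 101 bases, with every GGAC in capitals. The windows lay at chr17:1712667-1712767 (minus strand) for MIR22HG, chr11:567356-567456 (minus) for MIR210HG, chr22:49415764-49415864 (minus) for MIR3667HG and chr4:152536456-152536556 (plus) for MIR4453HG. Those of the other members lay at chr17:16471213-16471313 (plus) for SNHG29, chr2:111365821-111365921 (minus) for MIR4435-2HG, chr11:64892612-64892712 (minus) for MIR194-2HG and chr17:76563319-76563419 (plus) for SNHG16. The summit is the middle base of each window.
MIR22HG: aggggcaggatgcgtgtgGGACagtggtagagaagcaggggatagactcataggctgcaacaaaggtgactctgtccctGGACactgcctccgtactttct
MIR210HG: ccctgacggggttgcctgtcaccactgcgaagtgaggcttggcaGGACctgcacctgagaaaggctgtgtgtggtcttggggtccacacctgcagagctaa
MIR3667HG: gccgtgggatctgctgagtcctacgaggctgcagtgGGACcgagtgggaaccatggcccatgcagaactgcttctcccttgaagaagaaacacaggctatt
MIR4453HG: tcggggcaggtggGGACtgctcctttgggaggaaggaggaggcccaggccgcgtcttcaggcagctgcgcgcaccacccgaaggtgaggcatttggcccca
SNHG29: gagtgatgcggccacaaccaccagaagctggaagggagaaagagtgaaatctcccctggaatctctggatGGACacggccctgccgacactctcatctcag
MIR4435-2HG: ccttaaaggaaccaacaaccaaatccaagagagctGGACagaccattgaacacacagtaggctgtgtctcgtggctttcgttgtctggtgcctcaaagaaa
MIR194-2HG: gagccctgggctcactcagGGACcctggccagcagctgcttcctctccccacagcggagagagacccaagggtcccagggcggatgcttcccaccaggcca
SNHG16: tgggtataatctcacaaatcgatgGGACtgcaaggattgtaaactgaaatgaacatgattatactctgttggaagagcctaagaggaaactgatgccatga
All 8 windows held GGAC, with 2 copies in MIR22HG and 1 in each of the others. They are the strongest shared peak of each gene at the replicate 1 summit, and other summits of these genes, such as the replicate 2 summit of the same MIR4435-2HG peak, had none. Over all 25 exonic member summits of replicate 1, 60.0% had GGAC in a window of this length, against 48.6% of other lncRNA summits.

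A peak on a host gene can lie near the small RNA or far from it, so mature miRNAs are shown next, a single arm of each. They are those of the hosts with shared exonic peaks, and of MIR34AHG and MIR762HG with a summit near or in the hairpin. The others are the 5p arms of MIRLET7BHG and MIR181A1HG that have a seed in common. The sequences are from RefSeq (GRCh38.p14), 5′ to 3′, with the seed (bases 2 to 8) in capitals. A mature sequence was found for 17 of the 18 miRNA genes hosted by members with an exonic summit, and MIR3667 is only named.
miR-22-3p: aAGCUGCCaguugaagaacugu
miR-210-3p: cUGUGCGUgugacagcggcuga
miR-4453: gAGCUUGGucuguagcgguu
miR-762: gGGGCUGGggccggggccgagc
miR-34a-5p: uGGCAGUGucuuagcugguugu
miR-192-5p: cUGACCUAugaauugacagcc
miR-194-5p: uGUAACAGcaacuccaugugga
miR-4435: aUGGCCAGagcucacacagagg
let-7a-5p: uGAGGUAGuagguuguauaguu
let-7b-5p: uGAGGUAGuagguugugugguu
miR-181a-5p: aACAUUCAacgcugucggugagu
miR-181b-5p: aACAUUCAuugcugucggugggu
The let-7a-5p and let-7b-5p products of MIRLET7BHG had the same seed, GAGGUAG, and the miR-181a-5p and miR-181b-5p products of MIR181A1HG had the seed ACAUUCA in common. The let-7a-3p and let-7b-3p arms, not shown, also had a seed in common. The seeds of miR-22-3p, miR-210-3p and miR-4453 differed from each other.

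First, the number of host lncRNAs with an m6A peak was counted. In replicate 1, 16 of 112 members (14.3%, 95% Wilson confidence interval 8.99% to 22%) had a summit in an exon, against 4.69% of other lncRNAs. In replicate 2 it was 10 members (8.93%, interval 4.92% to 15.7%), against 3.35%. Both lists had one for 9 members (8.04%, interval 4.29% to 14.6%, against 2.89%) and either list for 17 members (15.2%, interval 9.70% to 23%, against 5.15%). These intervals cover counting error only. The share was therefore higher in host lncRNAs than in other lncRNAs before gene length was considered.

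Host lncRNAs were longer, with a median exonic length over all isoforms of 4108 nt against 1036 nt in other lncRNAs. The medians of the canonical transcript were closer, at 1311 and 799 nt. A longer gene offers more room for a peak. Weighted to the exonic lengths of the members over 20 strata, other lncRNAs had an exonic summit in 11.1% of genes in replicate 1, 8.70% in replicate 2 and 7.68% in both. The members exceeded these values by 3.18, 0.228 and 0.356 percentage points, and each length-weighted value lay inside the interval of the members. The last 2 differences changed sign when the 50 other lncRNAs nearest in length were used, to −0.446 and −0.357 percentage points. With the canonical transcript alone they were larger, at 2.94 and 2.59 percentage points, and the replicate 1 difference was 4.05. The size of the excess thus depended on how length was defined and matched. By length class, 5 of 26 members of 2000 to under 4000 nt had an exonic summit in replicate 1 (19.2%, interval 8.51% to 37.9%), against 7.34% (6.52% to 8.26%) of other lncRNAs of that length. This was the only class of the 6 in which the intervals did not overlap, and in replicate 2 it held 3 of 26 members (11.5%, interval 4.0% to 29.0%) against 5.38% (4.67% to 6.18%). In members of 8000 nt or more the order was the opposite, with 4 of 24 (16.7%, interval 6.68% to 35.9%) against 22.2% in replicate 1. No allowance was made for comparing 6 classes in each list, so the class of 2000 to under 4000 nt does not establish a difference. In the other classes and over all members, a difference from lncRNAs of like length was not detectable with 112 genes. Expression was not in the files, so its part in these shares was not tested.

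**Figure D1:**
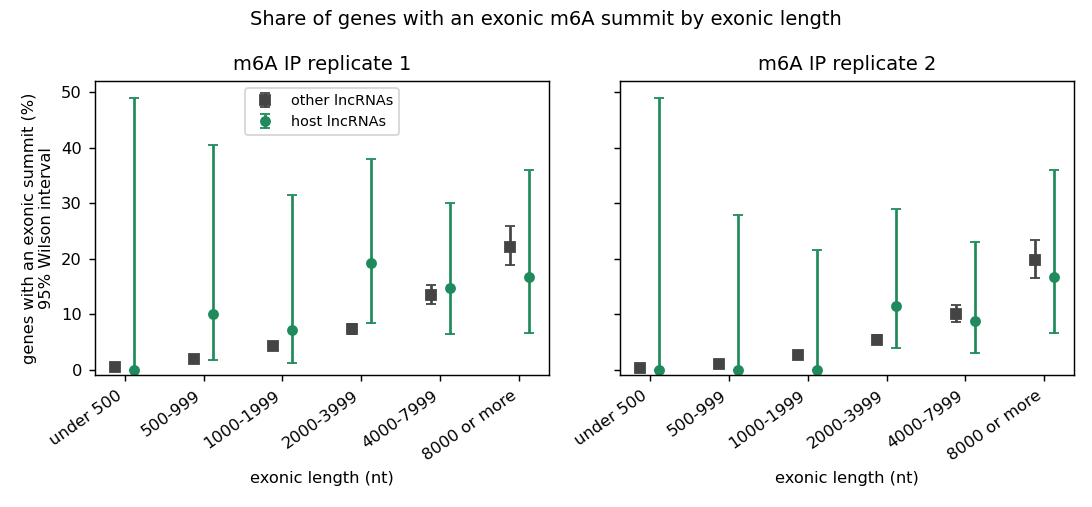
Share of genes with an exonic summit (%, y axis) in 6 classes of exonic length (nt, x axis), for host lncRNAs (circles) and other lncRNAs (squares) in each m6A IP replicate, with bars for 95% Wilson intervals. In replicate 1 the host lncRNAs of 2000 to under 4000 nt lie at 19.2% against 7.34%, and those of 8000 nt or more at 16.7% against 22.2%.

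Both classes of host contributed. Among snoRNA hosts, 4 of 29 had an exonic summit in replicate 1 (13.8%, interval 5.50% to 30.6%) and 2 of 29 in replicate 2 (6.90%, interval 1.91% to 22%). Among miRNA hosts it was 12 of 83 (14.5%, interval 8.47% to 23.6%) and 8 of 83 (9.64%, interval 4.97% to 17.9%). The intervals of the classes overlapped in each list. Of the remaining members, 4 had exonic summits only where a protein-coding exon also lay, 5 had only intronic summits, and 86 (76.8%) had no summit in an exon or in an intron free of other exons in either list.

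The best known snoRNA hosts were among those without a peak. GAS5, the growth-arrest transcript that carries a series of box C/D snoRNAs, had no exonic or intronic summit in either list. The same held for SNHG1, SNHG3, SNHG5, SNHG12 and SNHG15. Over all isoforms, exons spanned 4932 nt in GAS5, 3976 in SNHG1, 4088 in SNHG3, 12604 in SNHG5, 4266 in SNHG12 and 3943 in SNHG15. GGAC occurred in their exons 2.23 times per kb in GAS5, 2.01 in SNHG1, 1.96 in SNHG3, 2.22 in SNHG5, 3.75 in SNHG12 and 3.55 in SNHG15, against a median of 3.26 per kb over all members. The first 4 were below that median and the last 2 above it. Of the 29 snoRNA hosts, 23 had no summit. Among miRNA hosts, no summit was listed for MIR17HG, the host of the oncogenic miR-17-92 cluster, for MIR31HG, for MIR205HG, whose miRNA is known from squamous epithelium, or for MIR155HG, whose miRNA is known from immune cells. MIR100HG had no exonic summit and 1 intronic summit in each list (4.57 in replicate 1 and 6.28 in replicate 2), at positions that did not overlap. Absence from a peak list does not show absence of m6A, since the lists hold no expression of these genes. The study's RNA-seq of OE-19 cells was not used here.

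SNHG16, which carries SNORD1A, SNORD1B and SNORD1C, had a single exonic peak in each list. Its fold enrichment was 4.35 in replicate 1 and 2.14 in replicate 2. The summits were 16 bp apart in a 2230 nt last exon, 1664 bp and 1648 bp downstream of SNORD1A. The value of replicate 2 was the lowest of all exonic member peaks, and the pair ranked 523 of the 529 lncRNAs with an overlapping pair of exonic peaks. SNHG16 was thus seen in both lists at low enrichment.

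SNHG29, the host of SNORD49A, SNORD49B and SNORD65, had 3 exonic peaks in replicate 1 (6.44, 5.71 and 4.21) and 2 in replicate 2 (5.30 and 5.30). The first 2 of replicate 1 overlapped those of replicate 2, with summits 57 bp and 19 bp apart. All 5 lay in the 2780 nt last exon of a 7-exon isoform, 29599 to 30938 bp downstream of SNORD65 and within the body of the protein-coding gene LRRC75A. The canonical transcript of SNHG29 is only 443 nt long and does not contain this exon. The signal assigned to SNHG29 thus lay far from its snoRNAs, and without strand it cannot be told apart from signal of LRRC75A.

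The other snoRNA hosts had peaks in replicate 1 alone. SNHG21, which carries the Cajal body RNA SCARNA15, had a peak of 9.17 in its first exon, 5240 bp upstream of SCARNA15. SNHG18, the host of SNORD123, had peaks of 3.55 in the first exon and 3.85 in the last exon. None of these 3 peaks overlapped a peak of replicate 2 and none had GGAC within 50 nt of the summit. SNHG8, the host of SNORA24, had overlapping peaks in both lists (4.24 and 3.26), but this stretch is also an exon of PRSS12 and the summits were assigned to that protein-coding gene.

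MIR22HG had the highest exonic peak of all members in replicate 1 and the highest geometric mean over the lists, while in replicate 2 MIR3667HG was higher (10.3). The MIR22HG peak reached 16.5 in replicate 1 and 8.64 in replicate 2. The summits were 27 bp apart at 1186 and 1213 bp downstream of MIR22, which itself lies in an exon of the canonical transcript. Both summits lay in the 2512 nt last exon of the 4-exon transcript, 1214 and 1187 nt before the 3′ end, and no other gene was annotated there. MIR22HG ranked 36 of the 529 lncRNAs with an overlapping exonic pair, by the geometric mean of both values (11.9). The nearest GGAC was 30 nt from the replicate 1 summit and 4 nt from the replicate 2 summit.

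MIR210HG followed. Its miRNA is well known as a target of the hypoxia response. The fold enrichment was 13.0 in replicate 1 and 8.32 in replicate 2, the summits were 22 bp apart, and the pair ranked 69 of 529. Both summits lay in the 2197 nt last exon, 683 and 661 bp downstream of the intronic MIR210 hairpin. In MIR22HG and in MIR210HG the signal was thus on the last exon, 661 to 1213 bp downstream of the hairpin, which is exonic in MIR22HG and intronic in MIR210HG.

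MIR4453HG, a single-exon gene of 3000 nt, was the only member with a shared peak over the hairpin. The fold enrichment was 8.60 in replicate 1 and 6.60 in replicate 2, and the rank was 204 of 529. The replicate 1 summit (chr4:152536506) fell inside MIR4453 (chr4:152536428-152536516), and that of replicate 2 lay 51 bp downstream. The peaks covered all 89 bases of the hairpin in replicate 1 and 88 of 89 in replicate 2. MIR4453 lies in an exon here, so a peak on the hairpin and a peak on the host cannot be told apart. With summits inside a hosted small RNA left out, an alternative chosen after seeing the data, the number of members with an exonic summit was 15 in replicate 1 and 8 in both lists.

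MIR34AHG, the host of the p53 target miR-34a, had an exonic peak in each list, but not at the same place. The fold enrichment was 6.79 in replicate 1 and 5.51 in replicate 2, and the summits were 490 and 1690 bp downstream of MIR34A in the 3825 nt last exon. The peaks did not overlap and neither summit had GGAC within 50 nt. The gene was counted in both lists, although no position of it was shared.

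MIR194-2HG carries miR-192 and miR-194, which are known from intestinal epithelium. A peak in exon 3 of 4 was shared, with 5.0 in replicate 1 and 3.11 in replicate 2 and summits 22 bp apart. A second peak of replicate 1 (4.74) lay 184 bp upstream of MIR194-2, in a long last exon that contains the hairpin, and did not overlap a peak of replicate 2. The shared summits lay 1223 and 1245 bp upstream of MIR194-2.

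MIR4435-2HG, a gene of 517362 bp described in myeloid cell survival and in tumours, had 3 exonic peaks in replicate 1 (5.48, 5.36 and 4.62) and 4 in replicate 2 (7.14, 5.91, 5.66 and 3.13). Of these, 2 pairs overlapped (5.36 with 5.66, and 4.62 with 3.13), both in a 6494 nt last exon, with summits 44728 to 45494 bp upstream of MIR4435-2. The best peak of each list was not shared. The 5.91 peak of replicate 2 overlapped a replicate 1 peak of 6.72 whose summit, 25 bp away, fell just outside the exon and was counted as intronic. The paralog CYTOR carries the other copy of the miRNA, MIR4435-1, so reads could be placed at either gene and these values are uncertain.

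The other miRNA hosts were seen in a single list. In replicate 1 these were MIR4713HG (8.69, within the body of CYP19A1), MIR3936HG (7.21), MIR762HG (5.31), MIR9-3HG (5.12, with 3 GGAC copies near the summit) and MIRLET7BHG (4.20, 10588 bp upstream of its nearest hairpin, MIR3619). In replicate 2 it was MIR181A1HG (3.63), in the first exon and 78128 bp upstream of MIR181A1. None of these peaks overlapped a peak of the other list. MIR3936HG and MIRLET7BHG each had in addition a shared intronic peak that was higher than the exonic ones. Those values were 12.1 in replicate 1 and 8.15 in replicate 2 for MIR3936HG, and 6.87 and 7.27 for MIRLET7BHG. For MIR23AHG, MIR302CHG and MIR600HG, peaks of both lists lay in exons that protein-coding genes (ZSWIM4, LARP7 and STRBP) also use. Their best values were 8.34 and 6.04, 3.89 and 2.80, and 7.34 and 2.80, and they were assigned to those genes. A replicate 1 peak of 6.10 in MIR3936HG was likewise assigned to SLC22A5.

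**Figure D2:**
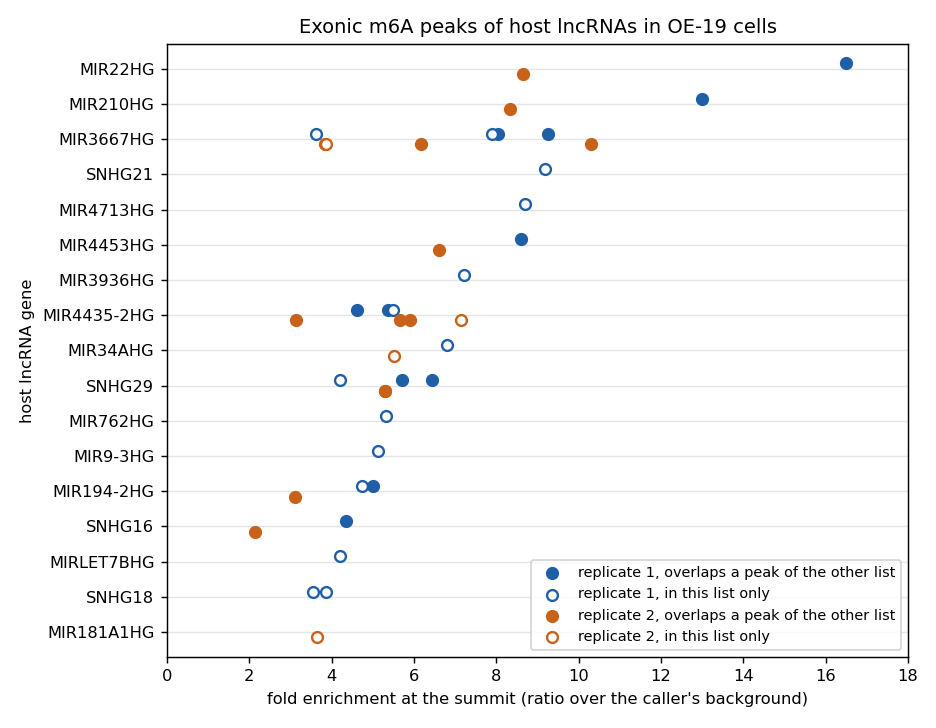
Fold enrichment at the summit (x axis, ratio) of every exonic peak of the 17 host lncRNAs that had one (y axis), by replicate (colour), with filled points for peaks that overlap a peak of the other list. MIR22HG lies at 16.5 and 8.64 and MIR210HG at 13.0 and 8.32, while SNHG16 lies at 4.35 and 2.14 and 7 genes have points of replicate 1 alone.

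As a group, the exonic peaks of host lncRNAs were of ordinary strength. The 25 peaks of replicate 1 had a median fold enrichment of 5.48 (3.55 to 16.5) and the 17 peaks of replicate 2 a median of 5.51 (2.14 to 10.3). Exonic peaks of other lncRNAs had medians of 5.99 and 5.32, and those of protein-coding genes 5.21 and 4.72. In replicate 1 the miRNA hosts had a median of 6.13 over 18 peaks and the snoRNA hosts 4.35 over 7 peaks. In replicate 2 the medians were 5.79 over 14 peaks and 5.30 over 3.

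Peaks of host lncRNAs were then compared between the lists. Of the 25 peaks of replicate 1, 11 overlapped a peak of replicate 2 (44%, interval 26.7% to 62.9%), and of the 17 of replicate 2, 13 overlapped a peak of replicate 1 (76.5%, interval 52.7% to 90.4%). The shares for other lncRNAs were 57.5% (54.7% to 60.2%) of 1260 peaks and 87.0% (84.6% to 89.1%) of 853, and for protein-coding genes 60.6% and 95.9%. The member shares were lower in both lists, and their intervals contained the values of other lncRNAs. The interval of replicate 2 did not reach the 95.9% of protein-coding genes, and neither did that of other lncRNAs. The 17 peaks came from 10 members, so the member interval is too narrow for this comparison. With 25 and 17 peaks, a difference from other lncRNAs was not detectable.

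Matching each peak with the one it overlapped most, in both directions, gave 11 pairs of member peaks. Fold enrichment was higher in replicate 1 in 9 of them, with a median log2 ratio of 0.56 (−0.15 to 1.07). Over 682 pairs of other lncRNAs the median was 0.39, and over all 11721 exonic pairs it was 0.43 with 80.0% higher in replicate 1. The highest log2 ratios were those of a MIR3667HG pair (8.03 and 3.84, 1.07) and of SNHG16 (1.03), and the lowest was that of the other MIR3667HG pair (9.25 and 10.3, −0.15). Summits of these MIR3667HG pairs were 456 and 802 bp apart, so their ratios do not describe single sites. Each list has its own background, so these ratios do not measure a change in m6A.

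**Figure D3:**
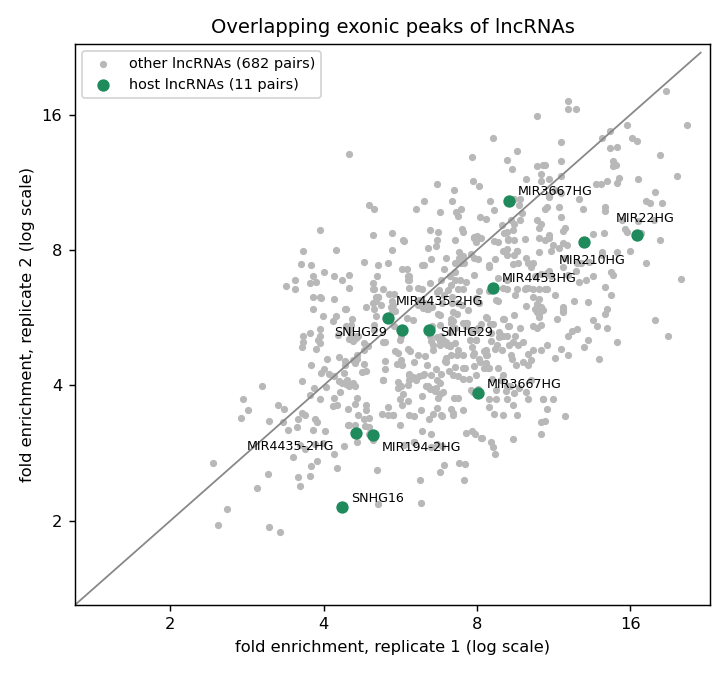
Fold enrichment in replicate 1 (x axis) and replicate 2 (y axis), both on log scales, for overlapping exonic peak pairs of lncRNAs; green points are the 11 pairs of host lncRNAs, grey points the 682 pairs of other lncRNAs, and the line marks equal values. Of the 11 pairs, 9 lie below the line, and MIR22HG and MIR210HG lie at the right among the most enriched.

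The placement of the summits within the host genes was examined next. The last exon of a multi-exon transcript held 17 of 25 exonic summits in replicate 1 (68.0%, interval 48.4% to 82.8%) and 12 of 17 in replicate 2 (70.6%, interval 46.9% to 86.7%). In other lncRNAs it held 46.8% and 49.3%. The 25 and 17 summits came from 16 and 10 members, so the intervals are too narrow for a statement about genes. When summits in single-exon transcripts were counted with those in last exons, the shares were 72.0% and 82.4% in members against 65.4% and 67.9%, so the difference was smaller with this count. The exon that held the summit had a median length of 1943 nt in replicate 1 and 2230 nt in replicate 2, against 1294 and 1440 nt. Only 11 of 25 and 8 of 17 summits lay in the canonical transcript of the gene (44% and 47.1%), against 73.0% and 71.5% in other lncRNAs. The canonical transcript was also shorter beside all exons in members, with medians of 1311 and 4108 nt over all genes. In other lncRNAs these medians were 799 and 1036 nt. The part of this in the lower share was not tested. Summits of SNHG16, SNHG29, MIR4435-2HG, MIR9-3HG, MIRLET7BHG and MIR3936HG lay in alternative isoforms alone.

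GGAC was searched for up to 50 nt on either side of each summit, on the host's strand and with overlapping copies counted. It was found at 15 of 25 member summits in replicate 1 (60.0%, interval 40.7% to 76.6%) and at 9 of 17 in replicate 2 (52.9%, interval 31.0% to 73.8%). In other lncRNAs the shares were 48.6% of 1322 and 48.0% of 888 summits, and in protein-coding genes 49.7% and 51.7%. The base composition also differed, with a mean GC content of 59.7% and 57.3% in the member windows against 56.0% and 55.0% in other lncRNAs, and its part was not tested. In replicate 1 the letters were found at 13 of 18 summits of miRNA hosts and at 2 of 7 of snoRNA hosts, and in replicate 2 the order was the opposite, at 7 of 14 and 2 of 3. The intervals of members and other lncRNAs overlapped in both lists.

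The distance to the hosted small RNA was measured for every summit. GENCODE lists 287 snoRNA, scaRNA and miRNA genes (150, 5 and 132) on the same strand inside 109 of the members, 131 of them within an exon of some isoform and 138 within introns only. None is listed there for GAS5, MIR670HG and MIR7515HG. RefSeq places 11 small RNA genes inside GAS5. The exonic summits of members lay at a median of 15759 bp from the nearest hosted small RNA in replicate 1 (0 to 127579 bp) and 30022 bp in replicate 2 (51 to 128381 bp). The replicate 1 median was 5240 bp without MIR3667HG, an alternative chosen after seeing the data, and likewise at q of 1e-05 or less. Within 1000 bp were 5 of 25 and 2 of 17 summits. Summits downstream of the small RNA numbered 15 against 9 upstream in replicate 1, and 11 against 6 in replicate 2. How much exon lay on each side or within 1000 bp of the small RNAs was not measured. These counts therefore have no reference, and several summits came from the same gene.

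Peaks over the small RNAs themselves were few. Of the 287 hosted genes, peaks overlapped 2 in replicate 1 (MIR4453 and MIR762) and 1 in replicate 2 (MIR4453). Of all 2870 annotated small RNA genes of these types, peaks overlapped 61 and 33. The MIR762 peak (6.51, replicate 1 alone) was 123 bp wide and had its summit at chr16:30893962, within the mature sequence printed above (chr16:30893951-30893972). An exon of the protein-coding gene BCL7C also covers that position, and the lists carry no strand. The exonic peak of MIR762HG (5.31) lay 614 bp downstream of the hairpin. No snoRNA or scaRNA of a member was overlapped by a peak in either list.

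**Figure D4:**
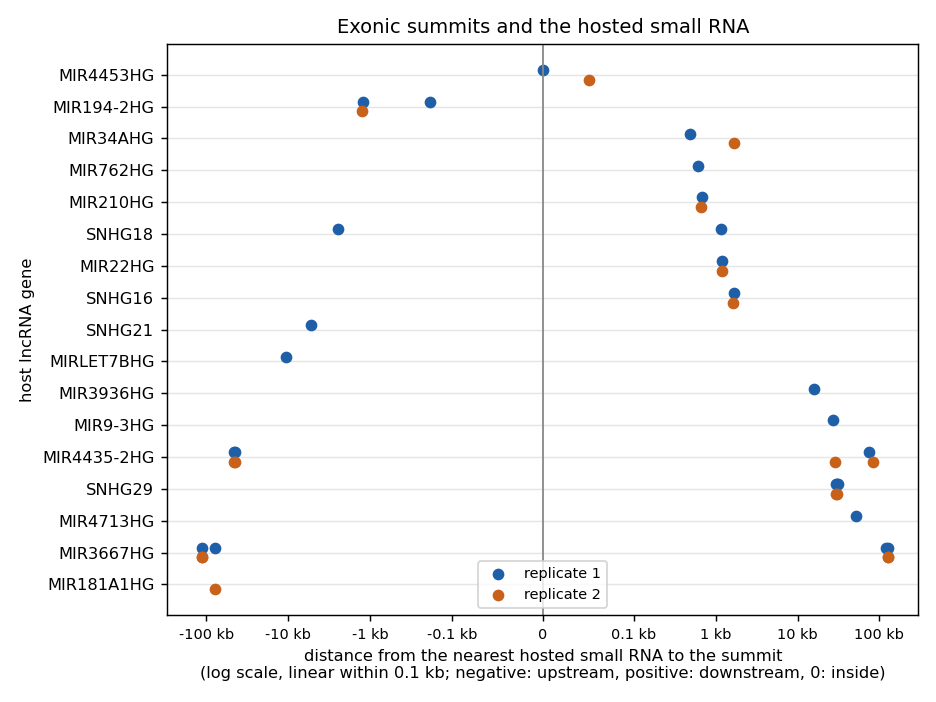
Distance from the nearest hosted small RNA to each exonic summit (x axis, log scale, linear within 0.1 kb, negative upstream and positive downstream) for the host lncRNAs with an exonic summit (y axis), by replicate (colour). The replicate 1 summit of MIR4453HG lies at 0, the summits of MIR22HG and MIR210HG lie 661 to 1213 bp downstream, and those of MIR3667HG lie 77103 bp or more away on both sides.

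Intronic summits were counted where no exon of any gene lay. In replicate 1, 29 such summits fell in 9 members (8.04%, interval 4.29% to 14.6%, against 2.82% of other lncRNAs), and in replicate 2, 25 summits fell in 7 members (6.25%, interval 3.06% to 12.3%, against 4.08%). The lengths of gene bodies were not matched here. Median fold enrichment was 5.34 and 5.98, against 5.19 and 5.23 for intronic peaks of other lncRNAs. The overlap with the other list was 51.7% (15 of 29) and 56.0% (14 of 25), against 40.1% and 28.3%. These shares rested on MIR3667HG. Without it, an alternative chosen after seeing the data, 4 of 12 (33.3%, interval 13.8% to 60.9%) and 3 of 13 (23.1%, interval 8.18% to 50.3%) intronic peaks were shared.

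MIR3667HG, a gene of 243 kb (chr22:49414524-49657542, minus strand) with no other gene annotated at its summits, held the most peaks. It was singled out after its values were seen. It had 4 exonic and 17 intronic summits in replicate 1 and 4 exonic and 12 intronic summits in replicate 2, and no other lncRNA gene had as many in its body in either list. Of the 21 and 16 peaks, 13 and 14 overlapped a peak of the other list. The highest intronic peak of replicate 1 (15.3) lay 198 kb from the 5′ end of the gene, and its partner in replicate 2 (9.0) had the summit at the same base. The next ones in replicate 1 had 14.2 at 217 kb and 12.2 at 219 kb, with 7.94 and 5.98 in replicate 2. The highest intronic peak of replicate 2 (9.33) lay at 224 kb, with 9.38 in replicate 1. Of the 11 shared intronic summits of each list, 7 lay between 190 and 230 kb, toward the 3′ end, and included the widest peaks of the gene, which spanned 2045 and 2021 bp.

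The exonic peaks of MIR3667HG that overlapped between the lists were near the ends of the gene. The last exon of 1512 nt had a peak of 9.25 in replicate 1 and of 10.3 and 6.17 in replicate 2, and the pair ranked 86 of 529. The summits of the best pair were 802 bp apart, since the replicate 1 peak was 1144 bp wide and overlapped both replicate 2 peaks. The replicate 1 summit (chr22:49415814) lay closer to that of the 6.17 peak (chr22:49415895) than to that of the 10.3 peak (chr22:49415012). The rank therefore joins values of different summits and does not describe a single site. Near the 5′ end, the lists had 8.03 and 3.84 with summits 456 bp apart. Exonic peaks in a single list lay at 37 kb (3.62) and 234 kb (7.90) in replicate 1, both in internal exons of other isoforms, and at 1.18 kb (3.87) in replicate 2. The hairpin MIR3667 lies 114 kb from the 5′ end in an intron, and the nearest summits were 594 and 560 bp upstream of it (5.51 and 7.47), in overlapping peaks that did not reach the hairpin.

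**Figure D5:**
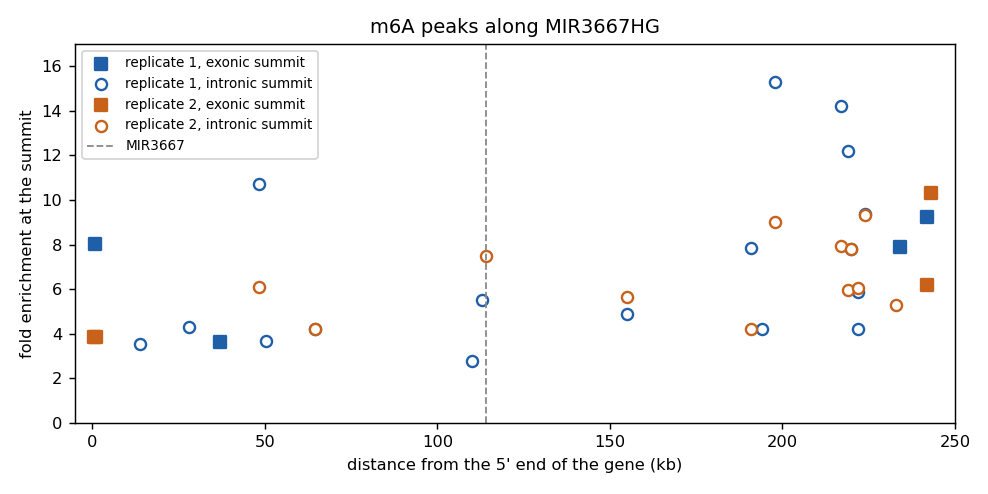
Fold enrichment (y axis) of the m6A peaks of MIR3667HG by distance of the summit from the 5′ end of the gene (x axis, kb), for both replicates (colours), with squares for exonic and open circles for intronic summits and a dashed line at MIR3667. The highest points, 15.3 and 14.2 in replicate 1, lie at 198 and 217 kb.

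The other intronic summits were scattered. MIR4300HG, a gene of 897028 bp, had 6 in replicate 2 (4.23 to 6.85), none of which overlapped a peak of replicate 1. MIR4435-2HG had 4 in replicate 1 and 2 in replicate 2. MIR646HG had 2 in replicate 2 (7.42 and 5.71), and MIR194-2HG, MIR9-1HG, SNHG14 and SNHG29 had 1 each in replicate 1 (5.34, 4.01, 4.61 and 3.93). None of the latter 4 was shared, and the SNHG14 summit also lay in the body of UBE3A. Sharing of intronic peaks was therefore limited to MIR3667HG, MIR3936HG, MIRLET7BHG and MIR4435-2HG.

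Members with and without an exonic summit in either list were also described by their gene features. The 17 with a summit had a median gene body of 50896 bp (2801 to 517362 bp) and the 95 without had 18827 bp (540 to 897028 bp). The median exonic length was 4732 nt with a summit and 4057 nt without. The longest exon of the canonical transcript had a median of 897 against 784 nt, and GGAC occurred 3.68 against 3.11 times per kb of exon. The ranges overlapped, at 561 to 34231 nt against 340 to 122609 nt for exonic length.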

How the data were processed

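Peak lists of m6A IP sequencing in OE-19 cells were analysed, grouped by the sample labels. Input samples entered no comparison. The labels describe UV-fixed, lysed cells, and the study's methods DNase-treated, fragmented total RNA. The authors aligned reads to hg38 (TopHat2 in the methods, fastp and HISAT2 in the submitters' processing notes) and called peaks with MACS2 at default settings, 1 list per sample. Releases are not given in the sources used here, and whether input served as control is not stated. The authors deposited summit fold enrichment, a ratio, with −log10 of p-value and q-value and an unused score for every peak. The highest q was 0.0491 and 0.0497.

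A summit was assigned to the gene whose exon (union over GENCODE version 44 transcripts) held it, protein-coding genes first. A summit inside a hosted small RNA was counted for the member where it also lay in an exon of the member. Intronic summits lay in a member and in no exon. Peaks were shared at an overlap of 1 bp. Small RNAs counted as hosted on the same strand. Placement used the canonical transcript, otherwise the longest one with the summit. No test was run, since the lists carry no replicate variance, and intervals are Wilson intervals (95%). Intervals on shares of peaks or summits treat each as separate, although several came from the same gene. Members and lists were chosen with earlier results of these data known. Every member with an exonic summit is named, with 15 hosts fixed by name. The 5 other lncRNA hosts with the highest geometric mean of an overlapping exonic pair are named too. Functions were tested on simulated peaks. Python 3.11.15, numpy 2.4.6, pandas 2.3.3, scipy 1.17.1 and matplotlib 3.10.9 were used.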

Additional observations from a re-analysis of the deposited data

How the results depend on the processing

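Over 148 recomputed values of 18 results, 123 stayed within their limits, 22 moved and 3 changed sign. Values within the limits could still differ much from the main ones, so 123 is not a count of unchanged values. Among them, the excess in both lists was 3.18 percentage points without replicate 2, against 0.356. Sharing of exonic member peaks fell to 32% and 52.9% in replicates 1 and 2 with 50% of each peak covered by its partner. The main values were 44% and 76.5%, and the highest 52.9% (q of 1e-05 or less) and 81.8% (fold enrichment of 5 or more). The excess over other lncRNAs of like length in replicate 2 and in both lists turned to −0.446 and −0.357 percentage points with the 50 nearest lncRNAs, and in both lists to −0.537 with summits inside a hosted small RNA left out. For that last setting, the RefSeq small RNAs and the setting without MIR3667HG, the choice was made after seeing the data. Leaving out each replicate gave 10 to 16 members in place of 9. With the canonical transcript alone, the excess was 4.05 percentage points in replicate 1, 2.94 in replicate 2 and 2.59 in both lists. Median fold enrichment in replicate 1 was 7.21 at q of 1e-05 or less, 7.55 at a fold enrichment of 5 or more, 5.36 without MIR3667HG and 5.42 without summits in a small RNA. In replicate 2 it was 5.58 at q of 0.01 or less, 5.66 at 1e-05, 6.17 at a fold enrichment of 5 or more and 5.30 where any exon of a member counted. Median distance in replicate 1 was 5240 bp at q of 1e-05 or less and without MIR3667HG, and 28372 bp at a fold enrichment of 5 or more. Intronic summits in replicate 1 were 17 at q of 1e-05 or less, 16 at a fold enrichment of 5 or more, 44 where any exon counted and 12 without MIR3667HG, and in replicate 2 they were 16 at 1e-05 and 13 without MIR3667HG. GGAC was at 36% (within 25 nt) and 84% (within 100 nt) of replicate 1 summits and at 82.4% (within 100 nt) in replicate 2. All replicate 2 summits of a fold enrichment of 5 or more (100%) lay in a last or only exon. The cause of these changes was not tested, other than that stricter thresholds keep fewer peaks.

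No paired analysis was possible because the input samples have no peak list here and no test was run. The number of peaks on members (25 and 17) limits the precision, and the depth of the libraries is unknown.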

Other observations

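Hosts outside the naming rule were counted in the same way. Of 203 other lncRNA genes that carry a snoRNA, scaRNA or miRNA gene on the same strand, 18 had an exonic summit in replicate 1 (8.87%), 14 in replicate 2 (6.90%) and 12 in both (5.91%), against 4.64%, 3.32% and 2.86% of 18551 lncRNAs without one. Their exons were longer, with a median of 1897 nt against 1028 nt. By the geometric mean of an overlapping exonic pair, the highest were TTC28-AS1 (10.6), UBA6-DT (9.48), CYTOR (8.8), ENSG00000291117 (8.17) and FTX (7.82). FTX is a regulator of X inactivation that carries a miRNA cluster. The best peaks of each list, which need not be at the same place, do not follow this order. In replicates 1 and 2 they were 14.1 and 9.89 for TTC28-AS1, 8.08 and 11.1 for UBA6-DT and 14.4 and 5.37 for CYTOR. They were 8.66 and 8.92 for ENSG00000291117 and 10.6 and 10.1 for FTX. Of 1175 protein-coding hosts, 55.3% had an exonic summit in replicate 1 and 45.4% in replicate 2, against 42.4% and 34.1% of all protein-coding genes, with median exonic lengths of 6514 and 4416 nt.

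Genes that act on the products of host lncRNAs were counted too. Among 11 genes for box C/D and H/ACA snoRNP proteins and their assembly, 5 had an exonic summit in replicate 1 (45.5%) and 3 in both lists (27.3%), near the 42.4% and 33.4% of all protein-coding genes. The latter were SHQ1, an assembly factor of H/ACA particles (7.67 and 10.1), NOP56 (5.28 and 4.57) and SNU13 (3.84 and 3.20), both core proteins of box C/D particles. Of 10 factors of nonsense-mediated decay, the pathway that degrades many spliced snoRNA host transcripts, 10 had an exonic summit in replicate 1 and 8 in both lists (80.0%), against the same 42.4% and 33.4%. The highest values were those of SMG8 (13.7 and 11.0) and UPF2 (13.2 and 10.7). The median exonic length of these 10 genes was 6894 nt, against 4416 nt for protein-coding genes.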
